A study of Homo sapiens with 2 samples.

Results

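The 10 genes described here encode the core enzymes that make microRNAs (miRNAs) and the Argonaute proteins that carry them: DROSHA, DGCR8, XPO5, DICER1, TARBP2, PRKRA, AGO1, AGO2, AGO3 and AGO4. They were chosen by name, for their textbook roles, and all 10 had a row among the 21445 genes of the mRNA library. The library came from untreated U87MG, an established human glioblastoma cell line, grown in MEM with 10% FBS and 1% antibiotics. The series holds 1 such mRNA library (RNA integrity number 9.3) and 1 small RNA library of the same line (8.7), with no replicate and no other cell type. No difference could therefore be set against a spread between replicates, no test was made, and every ratio below compares genes within 1 library.

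miRNAs are cut from longer transcripts in steps. In the nucleus the Microprocessor, made of the ribonuclease DROSHA and its RNA-binding partner DGCR8, releases a hairpin from the primary transcript, and exportin-5, the product of XPO5, carries that hairpin to the cytoplasm with the GTPase RAN. There the ribonuclease DICER1, helped by the double-stranded RNA-binding proteins TRBP (TARBP2) and PACT (PRKRA), cuts the hairpin to a duplex, and an Argonaute protein keeps a strand of it as the guide that pairs with target mRNAs. DICER1 and the Microprocessor genes are also known for mutations in certain tumours.

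Some miRNA hairpins that lie inside the members' own loci, and some miRNAs that skip a step of the pathway, had reads in the small RNA library. Listed mature sequences are shown for miR-1306, miR-3173, miR-877-5p, miR-484 and miR-451a. Those of miR-320a, miR-877-3p and miR-1226, which also had reads, are not shown. No link between the levels of the enzymes and these miRNAs was tested. Capitals mark the seed, bases 2 to 8, which pairs with targets. miR-1306 lies within DGCR8 on chromosome 22, the 5p arm at chr22:20086072-20086093 and the 3p arm at chr22:20086112-20086129 (plus strand). miR-3173 lies within DICER1 on chromosome 14, the 5p arm at chr14:95137961-95137982 and the 3p arm at chr14:95137923-95137944 (minus strand). These positions are those of RefSeq on GRCh38.p14, whose sequences were the same as the listed ones for all of those shown except miR-451a, which was taken from the deposited list alone.
miR-1306-5p: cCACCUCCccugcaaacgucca
miR-1306-3p: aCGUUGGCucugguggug
miR-3173-5p: uGCCCUGCcuguuuucuccuuu
miR-3173-3p: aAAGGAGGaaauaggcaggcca
miR-877-5p: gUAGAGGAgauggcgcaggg
miR-484: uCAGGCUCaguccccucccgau
miR-451a: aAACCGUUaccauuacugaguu
No pair of these 7 sequences shares a seed.

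All 10 members were expressed at 1 FPKM or more, from 4.70 FPKM for AGO4 to 30.1 FPKM for DROSHA, a 6.40-fold range. FPKM is the number of sequenced fragments divided by transcript length and library size, so levels of different genes are compared per length. Their median was 13.5 FPKM, against 2.96 FPKM over all listed genes and 7.82 FPKM over the 14376 coding genes. At the threshold of 1 FPKM, 64.6% of all listed genes and 77.5% of coding genes stood as high. At 10 FPKM, 6 of the 10 members did, against 31.3% of all listed genes and 43.8% of coding genes. As single genes the members lay between percentiles 39.5 and 83.1 of coding genes, with a median of 64.1. They were thus mid-range genes of this cell line, and 3 of them, AGO1, XPO5 and AGO4, were below the coding median. Together they held 0.0371% of the summed FPKM of coding genes, which themselves held 10.6% of the FPKM sum of the library. The rest lay in rows of other gene types.

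**Figure D1:**
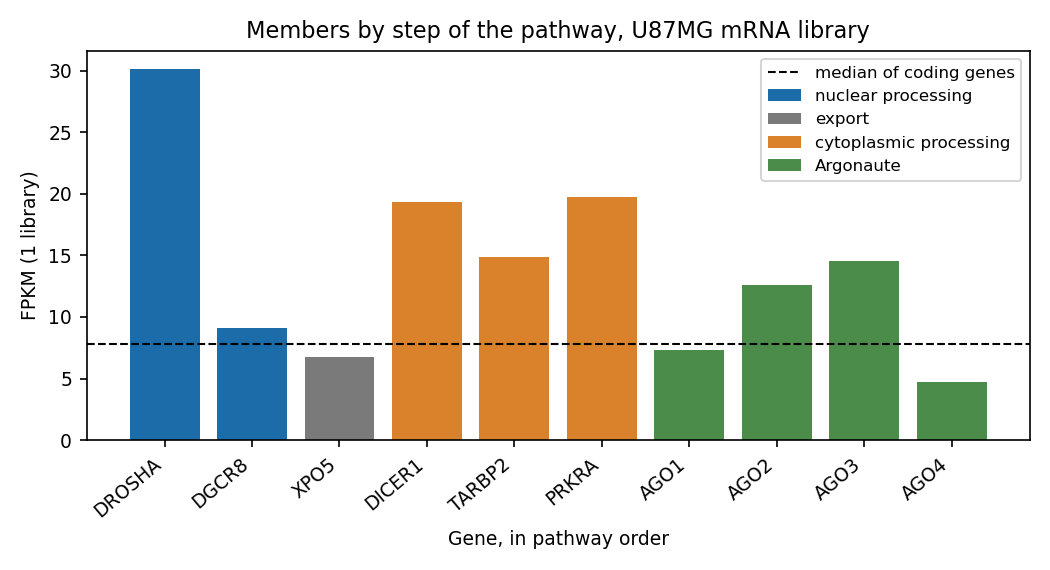
FPKM of each member in the U87MG mRNA library (1 library, no error bar), in the order of the pathway and coloured by step. The dashed line is the median of coding genes, 7.82 FPKM, and DROSHA at 30.1 FPKM is the tallest bar, while XPO5, AGO1 and AGO4 lie under the line.

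At the nuclear step the catalytic subunit was well above its partner. DROSHA stood at 30.1 FPKM (percentile 83.1 of coding genes) and DGCR8, which positions the cut on the hairpin, at 9.12 FPKM (percentile 53.9). The ratio of DROSHA to DGCR8 was 3.30. This gap was wider than those of DICER1 to its partners, and DROSHA was also 1.53 times the next member in order, PRKRA. Microprocessor is known to cut hairpins in the DGCR8 mRNA itself, which lowers that mRNA. Whether the cutting of those hairpins bears on the ratio seen here was not tested. Of these hairpins, miR-1306 had 26 reads on its 5p arm and 4 on its 3p arm, together 30 of 11785001 miRNA reads (0.000255%, exact 95% interval 0.000172 to 0.000363%), and miR-3618 had no row.

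XPO5, the only member at the export step, had the lowest level of the processing members. XPO5 stood at 6.76 FPKM (percentile 46.5 of coding genes). The level of DROSHA was 4.45 times, and that of DICER1 2.86 times, that of XPO5. RAN, the GTPase that loads exportins and serves all nuclear transport, stood at 205.99 FPKM. XPO1, the exportin of many proteins and of some capped miRNA precursors, stood at 55.1 FPKM. XPO5 was thus the lowest of the 3 export genes examined.

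The genes of the cytoplasmic step lay close together. PRKRA stood at 19.7 FPKM (percentile 74.3 of coding genes), DICER1 at 19.3 (percentile 73.8) and TARBP2 at 14.9 (percentile 66.8). DICER1 was 0.980 times PRKRA and 1.30 times TARBP2, and the highest of these genes was 1.32 times the lowest. In contrast to the nuclear step, neither RNA-binding partner was far below the enzyme. The geometric mean was 16.6 FPKM over the 2 nuclear genes and 17.8 FPKM over the 3 cytoplasmic ones, a ratio of 0.930. With arithmetic means that ratio was 1.09, so these data give no direction between the nuclear and cytoplasmic steps. The miRNA within DICER1, miR-3173, had 37 reads on the 5p arm and 5 on the 3p arm (together 0.000356%, interval 0.000257 to 0.000482%). It was added to the list after its values were seen.

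All of the Argonautes AGO1 to AGO4 were expressed, and AGO3 and AGO2 were the highest. AGO3 stood at 14.5 FPKM (percentile 66.1 of coding genes), AGO2, the main human Argonaute able to cleave a fully paired target, at 12.6 (percentile 62.03), AGO1 at 7.29 (percentile 48.3) and AGO4 at 4.70 (percentile 39.5). They made up 37.2%, 32.1%, 18.7% and 12.03% of the summed Argonaute level of 39.1 FPKM. AGO3 was 1.16 times AGO2, a gap that no replicate backs, and 3.09 times AGO4. AGO1, AGO3 and AGO4 together held 67.9% of the sum. The summed Argonaute level was 2.02 times that of DICER1. In RefSeq on GRCh38, AGO4, AGO1 and AGO3 lie next to each other in that order on the same strand. Their levels rose in that order. So few genes in 1 library cannot show a link of position to level, and none was tested. Argonautes are near relatives in sequence, and how the authors shared out reads that match more than 1 gene is not given in the sources used here.

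**Figure D2:**
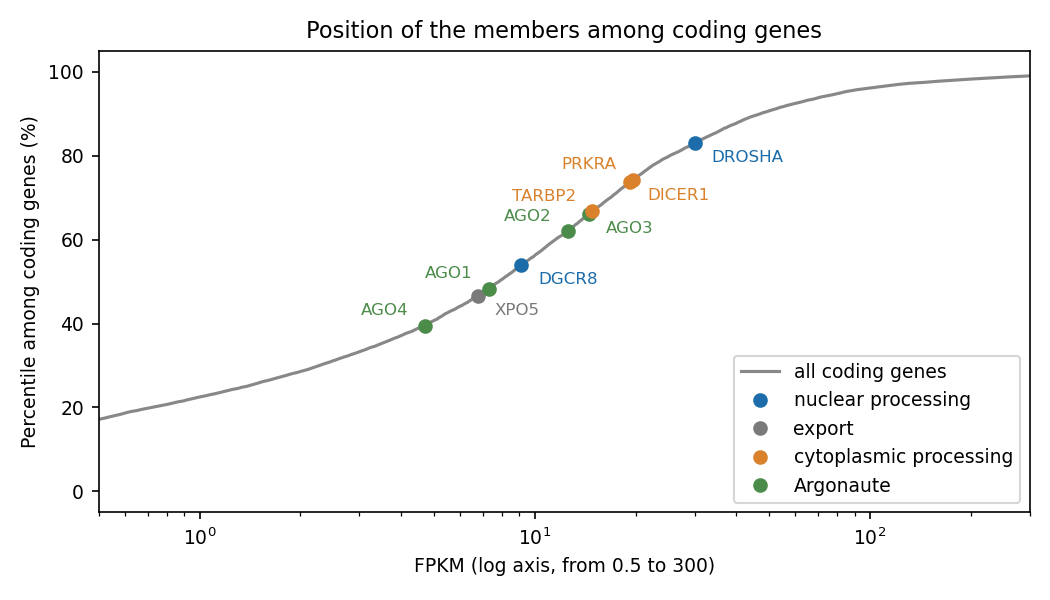
Percentile of each member among coding genes (vertical axis, %) against its FPKM (log axis), coloured by step, on the curve of all coding genes. AGO4 is lowest at percentile 39.5 and DROSHA highest at 83.1, and PRKRA with DICER1, and TARBP2 with AGO3, almost coincide.

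In order of level, the members ran DROSHA, PRKRA, DICER1, TARBP2, AGO3, AGO2, DGCR8, AGO1, XPO5 and AGO4. Neighbours in that order were close at PRKRA and DICER1 (1.02-fold), TARBP2 and AGO3 (1.02-fold) and AGO1 and XPO5 (1.08-fold). The widest steps were from DROSHA to PRKRA (1.53-fold), XPO5 to AGO4 (1.44-fold) and AGO2 to DGCR8 (1.38-fold). With 1 library none of these orders has a replicate check. Some members also overlap genes of the opposite strand in RefSeq: TARBP2 with MAP3K12 (12.5 FPKM), XPO5 with POLR1C (4.97 FPKM) and DICER1 with DICER1-AS1 (1.45 FPKM). Whether the counting used strand is not given in the sources used here, so reads in the shared stretches cannot be told apart.

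The other genes of the pathway were mostly at higher levels than the members. Of 60 such genes, in 8 lists by role, 55 had a row, 51 (85.0%) were at 1 FPKM or more and 47 at 10 FPKM or more. Among all coding genes 77.5% were at 1 FPKM or more and 43.8% at 10 FPKM or more. The counts by list below stand beside those same shares. The median over those with a row was 23.4 FPKM. Many of them also serve other processes in every cell. A missing row is not read as a lack of expression: the RNA helicase DDX5, a Microprocessor partner that most cells express strongly, had none.

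Of 11 Microprocessor partners, 10 reached 1 FPKM, and their median was 41.3 FPKM. HNRNPA1, an RNA-binding protein that remodels some primary transcripts, stood at 396.6 FPKM and the helicase DDX17 at 111.5. The lowest were NCBP1, of the nuclear cap-binding complex, at 16.1 and METTL3, which writes the m6A mark on primary transcripts, at 13.5. All 10 were thus above DGCR8. Among precursor regulators, the ribonuclease ZC3H12A stood at 13.8 FPKM, LIN28B, which blocks let-7 maturation, at 0.197, and LIN28A had no row.

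By median level, Argonaute loading and Argonaute modifying genes were the highest lists after nuclear export, a list of 2 genes. All 7 loading genes were above the highest Argonaute, with a median of 118.0 FPKM. The chaperones HSPA8 and HSP90AA1, which help an empty Argonaute take up its duplex, stood at 723.0 and 434.4 FPKM, and the lowest were FKBP4, a co-chaperone, at 25.1 and TSNAX, part of a nuclease that removes passenger strand pieces, at 23.03. Of 7 modifiers, 6 reached 1 FPKM, and their median was 56.4 FPKM. P4HB, a subunit of the prolyl hydroxylase that acts on AGO2, stood at 288.4 FPKM and CSNK1A1, a kinase of AGO2, at 99.2. PPP6C, part of the phosphatase that reverses that mark, stood at 24.1 and the import receptor IPO8 at 13.2. TRIM71, an embryonic ubiquitin ligase, had no row.

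Silencing effectors and decay genes lay nearest to the members. Of 17 effectors, 16 reached 1 FPKM, and the median was 15.8 FPKM. They were led by the poly(A)-binding protein PABPC1 at 590.7 and the deadenylase scaffold CNOT1 at 52.05. The lowest were TNRC6C at 2.79 and the decapping cofactor DCP1A at 0.0598. DCP1A was matched by symbol only, since its row carries an identifier that the gene name table does not pair with it. The TNRC6 proteins bind Argonaute directly, and TNRC6A (23.4 FPKM), TNRC6B (13.95) and TNRC6C summed to 40.1 FPKM, 1.03 times the Argonaute sum. TNRC6A and TNRC6B were named after their values were seen. All 9 tailing and decay genes passed 1 FPKM, and their median was 19.8 FPKM. TENT2, which adds adenosines to miRNA ends, stood at 31.1 and the exonuclease XRN2 at 28.5, while XRN1 at 13.2 and PNPT1 at 6.76 were lowest.

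The other branch of the Argonaute family stood far lower. PIWI proteins bind piRNAs, mainly in the germ line. PIWIL2 stood at 0.109 FPKM and PIWIL4 at 0.0775. PIWIL1 and PIWIL3 were not listed. The summed level of AGO1 to AGO4 was 209 times the 0.187 FPKM of the PIWI genes with a row. That ratio rests on values near the lower end of the table. It fell to 10.3 when 1 FPKM was added to each gene. That alternative also counted the unlisted PIWIL1 and PIWIL3, at the added 1 FPKM alone, so its set of genes differs.

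**Figure D3:**
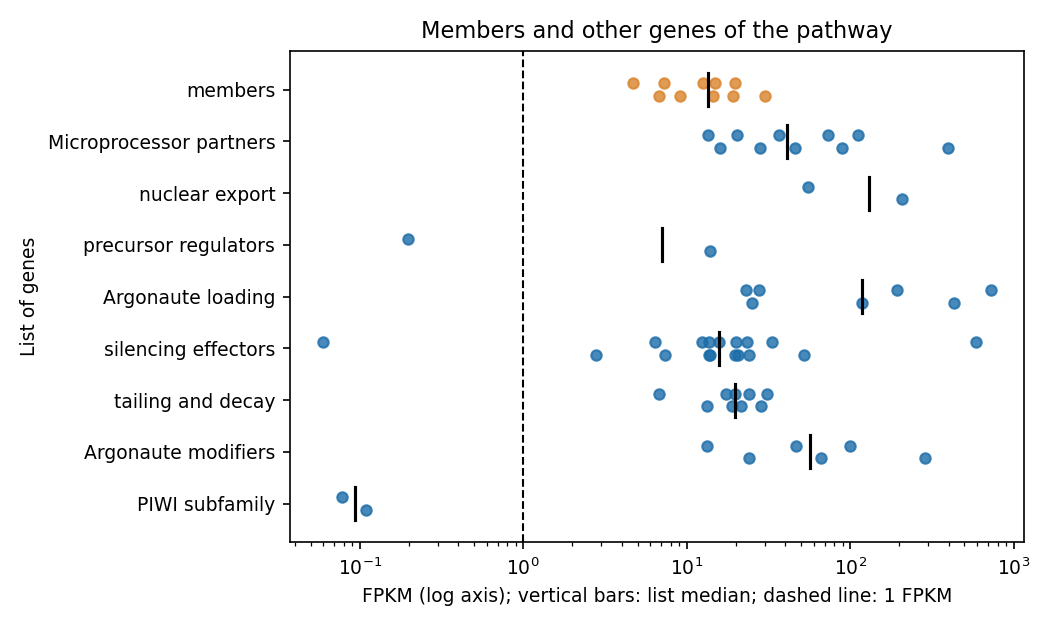
FPKM (log axis) of every member and every other pathway gene with a row, 1 point a gene, by list; vertical bars are list medians and the dashed line is 1 FPKM. The members run from 4.70 to 30.1 FPKM, and both PIWI genes with a row lie at or under 0.109 FPKM.

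Of 6 miRNAs examined that are known to bypass DROSHA or DICER1, the 2 from capped precursors had the most reads. Mirtrons are cut out by the spliceosome instead of DROSHA. miR-877 had 67 reads on the 5p arm and 2 on the 3p arm, miR-1226 had 4 and 1, and miR-1224 had no row. By reads, miR-877-5p stood at percentile 69.3 of the 1224 listed names. The 74 mirtron reads were 0.000628% of the miRNA reads (exact 95% interval 0.000493 to 0.000788%). miR-320a and miR-484 come from short capped transcripts that need DICER1 but not DROSHA, and use XPO1 for export. They had 10966 and 1354 reads, together 0.105% (0.103 to 0.106%). miR-451a, which AGO2 and not DICER1 cuts and which is mainly a red blood cell miRNA, had 7 reads, or 5.94e-05% (2.39e-05 to 0.000122%), at percentile 42.9 of the names. Reads carry no molecular identifiers, so these intervals cover counting error only.

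**Figure D4:**
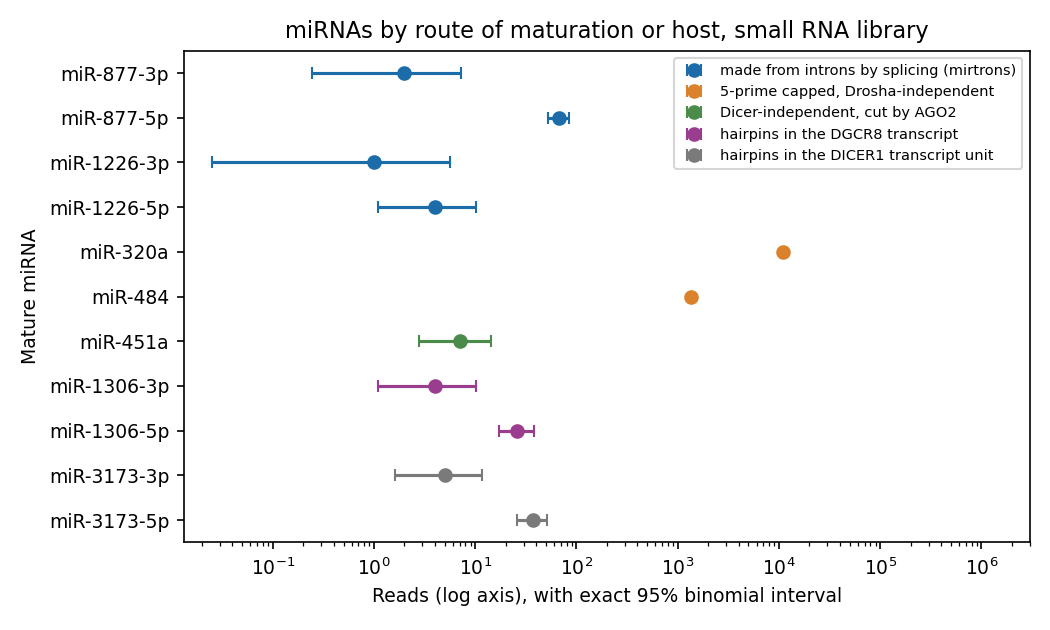
Reads of each listed mature miRNA (log axis) that skips DROSHA or DICER1, or lies within DGCR8 or DICER1, in the small RNA library; bars are exact 95% binomial intervals for counting error. miR-320a (10966 reads) and miR-484 (1354 reads) stand far to the right, and every other miRNA shown has 67 reads or fewer.

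The member promoters that were found, apart from that of TARBP2, held more CpG than the median coding promoter. CpG is the dinucleotide typical of genes used in most tissues. RefSeq windows on GRCh38.p14 from 250 bases before to 50 bases after the start were found for 9 of the 10 members, all but AGO2, and the first listed start of each gene was taken. Their GC content ran from 59.0% for TARBP2 to 80.3% for DGCR8, with a median of 72.3%, against 62.7% over the promoters of 15842 coding genes. They held 19 (TARBP2) to 57 (DGCR8) CpG, with a median of 30, against 22 over coding genes. The letters TATAAA, searched on both strands, were in 0 of the 9 windows and in 9.63% of coding promoters. These are descriptions of the windows, and no data on the promoters themselves were measured.

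The identity of the cells was checked against marker genes in the same library. Of 8 astrocyte and glioma markers 5 were at 1 FPKM or more, with VIM at 2420 FPKM, CD44 at 559.8, GJA1 at 142.99, SLC1A3 at 19.3 and NES at 1.38. GFAP, the defining astrocyte filament, stood at 0.331, and neither S100B nor AQP4 was listed. Of 5 neuron markers 2 reached 1 FPKM, TUBB3 at 43.5 and SNAP25 at 16.3. Of 5 microglia and immune markers 2 did, CD68 at 52.3 and CSF1R at 1.51, and of 4 endothelial markers KDR did, at 3.29. None of 5 oligodendrocyte markers did. OLIG2, PTPRC and PECAM1 were not listed. Beside these counts, 77.5% of all coding genes reached 1 FPKM. Markers of the labelled cell type were thus mixed, and the part of other cell types in the members' levels was not tested.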

How the data were processed

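Per the file headers, the authors deposited FPKM values per Ensembl gene for the mRNA library and raw read counts per mature miRNA for the small RNA library. Trimming with cutadapt and the builds hg19 and GRCh37 come from the submitters' processing notes. For the aligner, the counter, the FPKM program and its transcript lengths, nothing is stated (not given in the sources used here). Labels of the mRNA library carry the small RNA protocol, so how its RNA was selected is likewise not known. FPKM values have no interval because the mRNA depth is unknown. The small RNA library held 11785001 miRNA reads over 1224 names.

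Members were matched by Ensembl identifier, and all 10 had 1 row each. Percentiles are the percent of genes with a lower FPKM, a routine tested on simulated data. Ratios used no pseudocount. Shares of reads have exact Clopper-Pearson 95% intervals. Members, lists and the rule for named genes (every member, and the 2 highest, 2 lowest and unlisted genes of each role list) were chosen with earlier results of these data known. Alternatives were other thresholds, gene pools, pseudocounts, means and denominators. The piRNA table was not used. Python 3.11.15, numpy 2.4.6, pandas 2.3.3 and scipy 1.17.1 were used.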

Additional observations from a re-analysis of the deposited data

How the results depend on the processing

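Of the 10 members, 9 reached 5 FPKM and 6 reached 10 FPKM. A threshold of 0.5 FPKM and a scaling to a fixed coding sum could not lower the count of 10. That scaling, chosen after seeing the data, multiplies every value by 2.67, put the members' median at 36.1, and leaves every ratio between genes as it was. The members' median percentile of 74.3 among all listed genes became 64.1 among coding genes and 60.3 among genes at 1 FPKM or more. The ratio of nuclear to cytoplasmic genes was 0.942 with a pseudocount of 1 and turned to 1.09 with arithmetic means, which give DROSHA more weight. With a pseudocount of 1, the ratio of DROSHA to DGCR8 was 3.07, that of DICER1 to TARBP2 was 1.28 and the share of AGO3 was 36.03%. The ratio of the Argonaute to the PIWI sum was then 10.3, with the unlisted PIWIL1 and PIWIL3 also given the pseudocount. Weighting by the length in the deposited table, whose unit is not stated, gave AGO3 37.2%. Those lengths run only from 857 to 861 over the Argonautes, so this weighting could not move the share and says nothing of transcript length. With miR-21-5p out of the total, the shares of reads were 0.00153% for mirtrons, 0.254% for capped precursors, 0.000144% for miR-451a, 0.000618% for miR-1306 and 0.000866% for miR-3173. No paired analysis was possible because each kind of library was made once. The unknown transcript lengths limit every comparison of levels between genes.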

Other observations

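The first base of a guide sits in a pocket of Argonaute that is known to favour U or A. miRNAs starting with U held 86.8% of the miRNA reads (exact 95% interval 86.76 to 86.80%) and those starting with A 10.6%, against 2.11% for C and 0.488% for G. Among the 1224 names, each counted once, the shares were 38.2%, 28.7%, 21.7% and 11.4%. Without miR-21-5p, which starts with U, the read shares were 67.9% for U, 25.8% for A, 5.13% for C and 1.18% for G. The bases are those of the listed sequences, since the reads themselves were not analysed here, and which Argonaute held which miRNA was not measured.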
